A study of Homo sapiens with 12 samples.

Results

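The nuclear-encoded genes of the mitochondrial respiratory chain and ATP synthase were followed in 2 single-cell RNA libraries of Nalm-6 cells, a human B-cell precursor leukemia line. Members were the rows whose symbol begins with NDUFA, NDUFB, NDUFC, NDUFS, NDUFV, UQCR, COX4, COX5, COX6, COX7, COX8 or ATP5, together with SDHA, SDHB, SDHC and SDHD. Symbols beginning with NDUFAF (11 rows, assembly factors) and those ending in P and a number (125 rows, pseudogenes) were left out. This gave 94 of 57905 gene rows, of which 83 are subunits: 39 of complex I, 4 of complex II, 8 of complex III, 17 of complex IV and 15 of complex V. The other rows are 2 antisense genes, 2 readthrough genes, 3 second loci of NDUFA7, NDUFB8 and UQCR11, 2 copies (ATP5L2, ATP5J2LP) and 2 genes that are not subunits (ATP5S, ATP5SL).

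The respiratory chain moves electrons from NADH and succinate to oxygen through complexes I to IV and pumps protons across the inner mitochondrial membrane, and ATP synthase, complex V, uses that gradient to make ATP. Complexes I, III, IV and V are built from subunits of both the nuclear and the mitochondrial genome, whereas complex II is wholly nuclear. The nuclear subunits are made in the cytosol and imported, and in complex I a small catalytic core is surrounded by many accessory subunits.

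The library labelled RUNX1 came from Nalm-6 cells stably transduced with RUNX1 cDNA in the doxycycline-inducible pLVX-Tight-Puro system and given 500 ng/ml doxycycline. The control library has an empty vector as its genotype label, a title that names DMSO and no doxycycline in its labels. Both are labelled 72 h, whereas the methods of the study describe DMSO-treated Nalm-6 for a shorter time, so vector, inducer and time cannot be told apart from the RUNX1 label. Both libraries were made with the 10x Chromium 3′ assay after removal of dead cells, from lanes that also held mouse cells, and the series' 10 ChIP samples were not analysed here. There was 1 library per group, so no difference between the groups was tested, and all intervals are exact 95% intervals that cover counting error only.

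Cells with more than 2000 and fewer than 6000 genes and under 20% mitochondrial UMIs were kept, which left 4800 cells of 5491 barcodes in the library labelled RUNX1 and 5598 of 6073 in the control. They held 75350615 UMIs under the RUNX1 label and 75754137 UMIs in the control (unique molecular identifiers, counts of captured transcripts), a median of 14805 UMIs per cell in the library labelled RUNX1, beside 12505.5 in the control, and the libraries shared 12 barcodes. Mitochondrially encoded genes took 13.1% of UMIs in the library labelled RUNX1, beside 9.45% in the control, and 61.1% of cells under the RUNX1 label and 8.34% of control cells were called G1. All 14 B precursor markers in the files were measured, with summed levels of 5613 CPM (UMIs of the gene divided by all UMIs of the library and multiplied by 1000000) in the library labelled RUNX1 and 4598 CPM in the control. Single markers went both ways, with a log2 ratio below 0 for 10 of 14 (median -0.10), between DNTT at -1.60 and VPREB1 at 1.18, which at 2318 CPM under the RUNX1 label and 1022 CPM in the control differed by more than the sums did. Of 8 T-cell markers 2 were measured, and the list summed to 63.5 CPM under the RUNX1 label and 29.2 CPM in the control, with LCK as the member that differed most (44.9 CPM under the RUNX1 label and 9.37 CPM in the control, a log2 ratio of 2.26), ZAP70 at -0.40 and with CD3D, CD3G, CD5 and CD7 at 0. Of 10 myeloid markers 2 were measured, and the list summed to 173 CPM under the RUNX1 label and 9.94 CPM in the control, most of the higher sum being FCER1G (138 CPM in the library labelled RUNX1 and 0.0924 CPM in the control), with ELANE, S100A8 and S100A9 at 0. None of 7 erythroid markers was measured, at a sum of 0.146 CPM in the library labelled RUNX1 and 0.0660 CPM in the control. The part of these differences in the results below was not tested.

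RUNX1 itself, on chromosome 21 (36160098 to 37376965, GRCh37), had 2288 UMIs in the library labelled RUNX1, beside 5282 in the control, 30.4 CPM under the RUNX1 label and 69.7 CPM in the control. The log2 ratio was -1.20 (-1.27 to -1.13), against the direction of the label. A 3′ tag of a vector-borne cDNA can lie in vector sequence that a genome reference does not hold, so this row does not check the induction, and directions are given by the label of the library.

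As a group, the nuclear subunits took a smaller share of transcripts in the library labelled RUNX1. Their summed UMIs were 1436627 in the library labelled RUNX1, beside 1791544 in the control, or 19066 CPM under the RUNX1 label and 23649 CPM in the control, a log2 ratio of -0.31. The most marked differences lay in small subunits, with NDUFA3 of complex I, ATP5I of ATP synthase and UQCRQ of complex III each below 0.5 of the control level, whereas complex II was near parity. Sums over cells cannot by themselves tell fewer transcripts in every cell from fewer cells that express the genes. Within single cells, the quartiles of the summed share were 1.66% and 2.05% under the RUNX1 label and 2.19% and 2.56% in the control.

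A gene was measured when it reached 10 CPM in at least 1 library, which held for 76 of the 83 subunits and for 7980 genes in all. Genes with a log2 ratio at or beyond 0.5 in either direction were counted as lower or higher. Of the 76 measured subunits, 17 (22.4%) were lower, beside 21.4% of all measured genes, so the share of strongly lower subunits was close to the background. Only NDUFA7 was higher (1.32% of subunits), beside 13.8% of all measured genes, and it reached 10 CPM in the library labelled RUNX1 only. The median log2 ratio of the subunits was -0.22 with quartiles of -0.42 and -0.05, and that of all measured genes was -0.13. A total of 61 of the 76 subunits had a ratio below 0, beside 4797 of 7980 measured genes. Below the median of all genes lay 51 subunits, beside 3990 of 7980 genes. Each gene below is given with its level in both libraries and, in parentheses, its log2 ratio with the counting interval. That interval lay below 0 for 59 subunits, above 0 for 11 and held 0 for 6, with 633 to 83019 UMIs behind each value. Intervals were not counted in this way over all genes. The sign of the subunit median held under each scaling tried, but its size did not, and it was -0.01 when mitochondrial and ribosomal protein genes were left out of the totals. That scaling gave 9 lower and 4 higher subunits, beside 11.2% lower and 22.4% higher of all measured genes. It moved the median of all genes to 0.08.

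**Figure D1:**
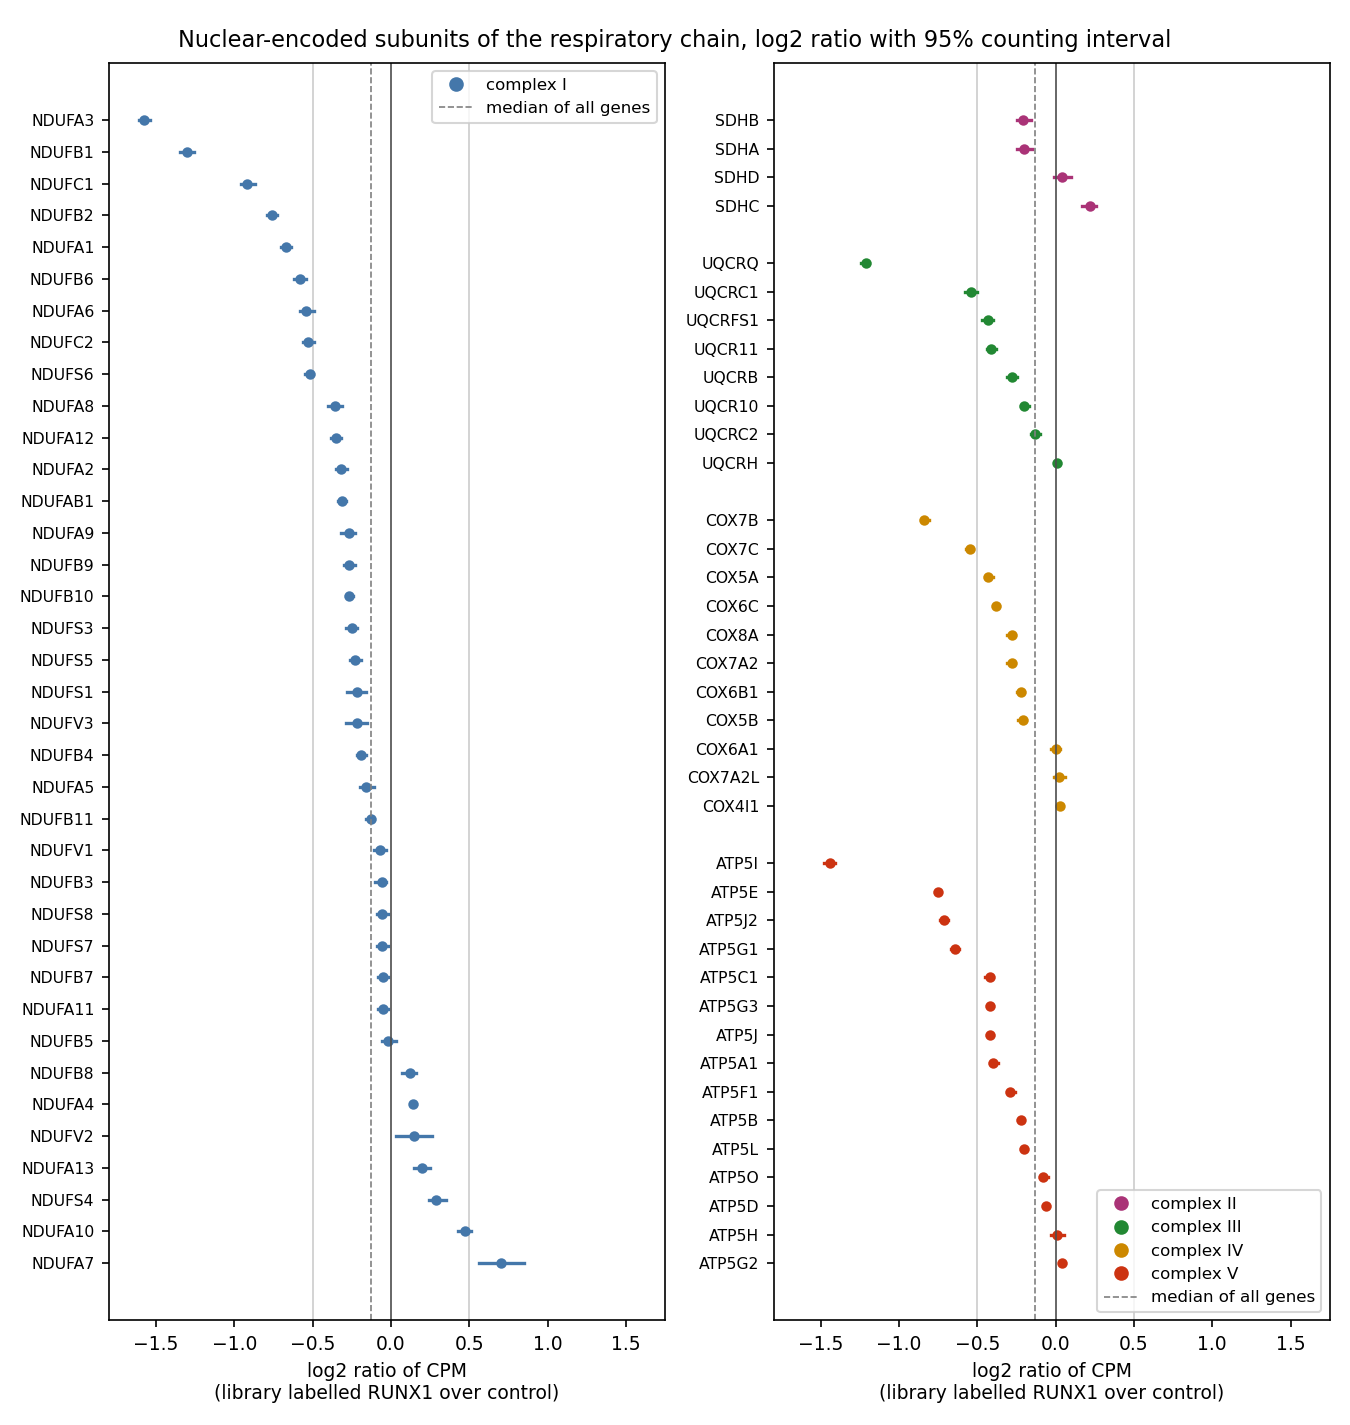
Log2 ratio of CPM, library labelled RUNX1 over control, for 75 of the 76 measured nuclear-encoded subunits, ordered within each complex (points, 1 library per group; bars, exact 95% counting intervals; dashed line, median of all measured genes at -0.13; grey lines, the log2 ratio of 0.5 used for counting). The points run between -1.58 for NDUFA3 and 0.70 for NDUFA7, and the 4 complex II subunits lie between -0.21 and 0.22.

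Promoters of 5 subunits are shown: the lowest of complexes I, III and V, NDUFS6 as a less marked one with the same motif as ATP5I, and NDUFA10 as one with a ratio above 0. The 150 bases before the RefSeq start (GRCh38.p14) are given 5′ to 3′ on the strand of the gene, with matches to an NRF1 or ETS motif in capitals. NRF1 and ETS-family factors such as GABPA are known activators of nuclear respiratory chain genes. The windows are NDUFA3 at chr19:54102705-54102854 (plus strand), UQCRQ at chr5:132866492-132866641 (plus strand), ATP5I, which RefSeq names ATP5ME, at chr4:674277-674426 (minus strand), NDUFS6 at chr5:1801257-1801406 (plus strand) and NDUFA10 at chr2:240025343-240025492 (minus strand).
NDUFA3: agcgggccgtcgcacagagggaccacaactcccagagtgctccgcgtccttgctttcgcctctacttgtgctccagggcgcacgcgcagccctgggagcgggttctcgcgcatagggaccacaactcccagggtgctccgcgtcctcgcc
UQCRQ: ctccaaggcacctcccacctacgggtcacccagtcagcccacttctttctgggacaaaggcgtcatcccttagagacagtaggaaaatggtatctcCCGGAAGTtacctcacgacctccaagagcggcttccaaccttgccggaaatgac
ATP5I: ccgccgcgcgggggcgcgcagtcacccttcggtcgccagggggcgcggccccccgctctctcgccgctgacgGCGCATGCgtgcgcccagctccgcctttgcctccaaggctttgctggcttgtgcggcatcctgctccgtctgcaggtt
NDUFS6: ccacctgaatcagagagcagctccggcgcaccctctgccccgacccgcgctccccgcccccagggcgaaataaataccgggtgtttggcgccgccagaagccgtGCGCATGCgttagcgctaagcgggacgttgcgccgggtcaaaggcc
NDUFA10: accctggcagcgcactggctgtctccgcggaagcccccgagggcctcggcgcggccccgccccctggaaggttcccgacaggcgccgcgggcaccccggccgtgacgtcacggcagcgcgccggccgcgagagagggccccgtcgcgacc
The ATP5I and NDUFS6 windows hold the NRF1 letters, the UQCRQ window holds the ETS letters, and the NDUFA3 and NDUFA10 windows hold none of the motifs searched.

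Across 63 measured subunits with a RefSeq window (250 bases before to 50 after the start), the NRF1 motif (GCATGCGC, or GCGCATGC on the other strand) was present in 13 windows, 20.6%, beside 3.27% of all 27305 promoters. The ETS motif (CCGGAAGT or ACTTCCGG) was present in 9, 14.3% beside 4.44% of all promoters. The YY1 motif (AAGATGGCG or CGCCATCTT), named for a zinc-finger factor that also binds promoters of this class, was present in 8, 12.7% beside 1.85%. No motif is contained in another. Any of the 3 motifs was present for 24 of the 63 subunits (38.1%), beside 8.90% of all promoters. The median log2 ratio was -0.21 for these 24 subunits and -0.25 for the others. Of the 17 lower subunits, 5 held one of the motifs, and ATP5J2 and NDUFC2 had no RefSeq window. A match is only a description of the letters.

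Complex I, the NADH dehydrogenase, had 9 lower subunits (23.7%) and 1 higher (2.63%) of 38 measured, with a median of -0.22. Of all measured genes, 21.4% were lower and 13.8% higher. Summed levels were 5940 CPM in the library labelled RUNX1 and 7149 CPM in the control (log2 ratio -0.27, -0.27 to -0.26). All 9 lower subunits are accessory subunits, which surround the catalytic core. NDUFA3, a membrane-bound accessory subunit on chromosome 19 (ENSG00000170906, 54606036 to 54612564, GRCh37), had the lowest ratio of all subunits, with 8010 UMIs or 106 CPM in the library labelled RUNX1 and 23993 UMIs or 317 CPM in the control (-1.58, -1.61 to -1.54). NDUFB1, a small subunit of the membrane arm on chromosome 14 (92582466 to 92588261), had 81.8 CPM in the library labelled RUNX1 and 202 CPM in the control (-1.30, -1.35 to -1.26). NDUFC1, also in the membrane arm, had 79.8 CPM under the RUNX1 label and 151 CPM in the control (-0.92, -0.96 to -0.87). NDUFA3 and NDUFB1 lie apart from the rest of complex I in the plot of subunit ratios.

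Further accessory subunits lay closer to the threshold. NDUFB2 had 172 CPM in the library labelled RUNX1 and 291 CPM in the control (-0.76), and NDUFA1, whose X-linked gene is mutated in some complex I deficiencies, had 182 CPM under the RUNX1 label and 290 CPM in the control (-0.67). NDUFB6 had 97.9 CPM under the RUNX1 label and 146 CPM in the control (-0.58), NDUFA6 87.1 CPM under the RUNX1 label and 126 CPM in the control (-0.54) and NDUFC2 134 CPM under the RUNX1 label and 193 CPM in the control (-0.53). NDUFS6, a zinc-binding accessory subunit of the matrix arm whose promoter is printed above, had 282 CPM in the library labelled RUNX1 and 405 CPM in the control (-0.52, -0.55 to -0.50). The interval of NDUFS6 reached the threshold, and those of NDUFA6 and NDUFC2 held it. The next ratio was that of NDUFA8, at -0.36 (86.0 CPM under the RUNX1 label and 110 CPM in the control).

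In the other direction, NDUFA7, an accessory subunit, had 1023 UMIs in the library labelled RUNX1, beside 633 in the control, 13.6 CPM under the RUNX1 label and 8.36 CPM in the control (0.70, 0.56 to 0.85), the fewest UMIs of any measured subunit. NDUFA10, which has the fold of a nucleoside kinase and whose promoter is printed above, had 170 CPM under the RUNX1 label and 123 CPM in the control (0.47, 0.43 to 0.51). Only in the library labelled RUNX1 did NDUFA7 reach the 10 CPM level, so it was counted through the library in which it was higher. NDUFA7 stayed past 0.5 under each of the 16 alternatives in which it had a value, and NDUFA10 stayed above 0.

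The 7 catalytic core subunits, such as NDUFV1, which binds the flavin, NDUFS1, which holds iron-sulphur clusters, and NDUFS3, were close to parity, a grouping chosen after the values were seen. Their median was -0.06, with NDUFS3 the lowest at -0.25, NDUFS1 at -0.22 and NDUFV1 at -0.07, and their summed level was 827 CPM in the library labelled RUNX1 and 865 CPM in the control (-0.07, -0.08 to -0.05). The 30 accessory subunits had a median of -0.27 and summed to 4498 CPM in the library labelled RUNX1 and 5729 CPM in the control (-0.35, -0.36 to -0.34). Role overlaps with coding length, at 792 nt for NDUFS3, 1392 nt for NDUFV1 and 2181 nt for NDUFS1. The part of length in this contrast was not tested. NDUFA4, now assigned to complex IV in spite of its name, was left out of both groups and had 609 CPM under the RUNX1 label and 551 CPM in the control (0.14, 0.13 to 0.16). All other counts, medians and sums by complex follow the symbol, so they hold NDUFA4 in complex I and not in complex IV. Its paralog NDUFA4L2, known as a hypoxia-induced gene, was below the level for measurement, with 416 UMIs in the library labelled RUNX1, beside 305 in the control (0.46, 0.24 to 0.67).

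Complex II, succinate dehydrogenase, which also serves the citric acid cycle, had none of its 4 subunits past the threshold. Over all cells they split by part of the enzyme. The flavoprotein SDHA had 93.0 CPM in the library labelled RUNX1 and 107 CPM in the control (-0.20, -0.25 to -0.15), and the iron-sulphur subunit SDHB had 93.8 CPM under the RUNX1 label and 108 CPM in the control (-0.21, -0.25 to -0.16). The membrane anchor SDHC had 109 CPM under the RUNX1 label and 93.5 CPM in the control (0.22, 0.17 to 0.26), and the anchor SDHD had 76.5 CPM under the RUNX1 label and 74.3 CPM in the control (0.04, -0.01 to 0.10). The 2 catalytic subunits were thus slightly lower and the 2 anchors level or slightly higher, but SDHA, SDHB and SDHD each took the other sign under at least 1 alternative. Within called phases this split did not hold. In G1 cells SDHA was at 0.09, SDHB at -0.38, SDHC at 0.32 and SDHD at 0.06. In S or G2/M cells they were at 0.00, -0.05, 0.10 and -0.02. The summed level was 372 CPM in the library labelled RUNX1 and 383 CPM in the control (-0.04, -0.06 to -0.02).

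Complex III, the cytochrome bc1 complex, had 2 lower subunits of 8 (25%, beside 21.4% of all measured genes) and none higher (beside 13.8%). The median was -0.35 and summed levels were 2231 CPM in the library labelled RUNX1 and 2821 CPM in the control (-0.34, -0.35 to -0.33). UQCRQ, a small subunit near the quinone site (ENSG00000164405, chromosome 5, 132202322 to 132204539, GRCh37), had 17194 UMIs or 228 CPM in the library labelled RUNX1 and 40020 UMIs or 528 CPM in the control (-1.21, -1.24 to -1.19). UQCRC1, a core protein of the matrix side, had 119 CPM under the RUNX1 label and 173 CPM in the control (-0.54, -0.58 to -0.50), and its partner UQCRC2 had 175 CPM under the RUNX1 label and 192 CPM in the control (-0.13, -0.16 to -0.10). UQCRFS1, the Rieske iron-sulphur protein, had 165 CPM in the library labelled RUNX1 and 224 CPM in the control (-0.43, -0.47 to -0.40). The other small subunits were nearer to parity than UQCRQ. UQCR10 had 330 CPM under the RUNX1 label and 379 CPM in the control (-0.20), and UQCRH, the hinge protein that helps dock cytochrome c, had 763 CPM under the RUNX1 label and 755 CPM in the control (0.01, -0.00 to 0.03).

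Complex IV, cytochrome c oxidase, had 11 of 17 subunits measured. Of these, 2 were lower (18.2%, beside 21.4% of all measured genes) and none higher (beside 13.8%). The median was -0.28 and summed levels were 4483 CPM in the library labelled RUNX1 and 5492 CPM in the control (-0.29, -0.30 to -0.29). COX7B, a small membrane subunit encoded on the X chromosome (77154937 to 77162873), had 17380 UMIs or 231 CPM in the library labelled RUNX1 and 31209 UMIs or 412 CPM in the control (-0.84, -0.86 to -0.81). COX7C, another single-helix subunit, had 598 CPM under the RUNX1 label and 876 CPM in the control (-0.55, -0.57 to -0.53). COX5A, on the matrix side, had 401 CPM under the RUNX1 label and 539 CPM in the control (-0.43, -0.45 to -0.40). The regulatory subunit COX4I1 had 856 CPM in the library labelled RUNX1 and 841 CPM in the control (0.03, 0.01 to 0.04), COX6A1 had 236 CPM under the RUNX1 label and 237 CPM in the control (-0.00, -0.03 to 0.03), and both took either sign among the alternatives.

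The tissue-restricted isoforms of complex IV were at or near 0. COX4I2, COX6A2, COX7A1 and COX7B2, known from lung, muscle or testis, had 0 UMIs in both libraries, with exact upper limits of 0.0490 CPM under the RUNX1 label and 0.0487 CPM in the control. Of the testis isoforms, COX8C had 30 UMIs in the library labelled RUNX1, beside 0 in the control, and COX6B2 had 26 under the RUNX1 label and 4 in the control (2.71, 1.18 to 4.69). Both are under the level for measurement by a wide margin. The widely expressed partners COX8A (288 CPM under the RUNX1 label and 351 CPM in the control, -0.28), COX6B1 (407 CPM under the RUNX1 label and 475 CPM in the control, -0.22) and COX7A2 (411 CPM under the RUNX1 label and 501 CPM in the control, -0.28) were lower by less than the threshold. COX7A2L, a factor that joins complexes into supercomplexes, had 197 CPM in the library labelled RUNX1 and 194 CPM in the control (0.02, -0.01 to 0.06).

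Complex V, ATP synthase, had 4 lower subunits of 15 (26.7%, beside 21.4% of all measured genes) and none higher (beside 13.8%). Over all cells its median was -0.40, the lowest of the 5 complexes, but complex III was lower with the 3 phases weighted equally (-0.38 for complex III and -0.37 for complex V) and in S or G2/M cells (-0.35 and -0.28). The summed level of complex V was 6040 CPM in the library labelled RUNX1 and 7805 CPM in the control (-0.37, -0.38 to -0.36). ATP5I, subunit e, which helps the enzyme form dimers in the membrane (ENSG00000169020, chromosome 4, 666225 to 668119, GRCh37), had 9237 UMIs or 123 CPM in the library labelled RUNX1 and 25229 UMIs or 333 CPM in the control (-1.44, -1.48 to -1.41). ATP5J2, subunit f of the membrane part, had 287 CPM under the RUNX1 label and 471 CPM in the control (-0.71, -0.74 to -0.69). ATP5L, subunit g, which sits beside subunit e, had 697 CPM under the RUNX1 label and 801 CPM in the control (-0.20, -0.22 to -0.18), so the subunits of this dimer region did not share a single ratio. The near-copy ATP5L2 had 87 UMIs in the library labelled RUNX1, beside 74 in the control, and reads of such copies can be lost or shared in counting.

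Within the F1 head and its central stalk, the ε subunit ATP5E had 48989 UMIs or 650 CPM in the library labelled RUNX1 and 83019 UMIs or 1096 CPM in the control (-0.75, -0.77 to -0.74). Reads of ATP5E also resemble its pseudogene ATP5EP2, which had 848 UMIs under the RUNX1 label and 215 UMIs in the control, 11.3 CPM under the RUNX1 label and 2.84 CPM in the control (1.99, 1.77 to 2.21). The pseudogene differed in the other direction, at a small fraction of the ATP5E count. The catalytic β subunit ATP5B had 536 CPM in the library labelled RUNX1 and 626 CPM in the control (-0.22), and its α partner ATP5A1 had 326 CPM under the RUNX1 label and 429 CPM in the control (-0.40). The δ subunit ATP5D, with 413 CPM under the RUNX1 label and 430 CPM in the control (-0.06, -0.08 to -0.04), was nearest to parity in this group, although it binds ATP5E in the stalk. ATP5H of the peripheral stalk had 152 CPM under the RUNX1 label and 150 CPM in the control (0.01, -0.03 to 0.05).

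The c ring, the rotor of ATP synthase, is built from a single mature protein that 3 genes encode, and these genes differed in ratio. ATP5G1 had 268 CPM in the library labelled RUNX1 and 419 CPM in the control (-0.64, -0.67 to -0.62), and ATP5G3 had 574 CPM under the RUNX1 label and 767 CPM in the control (-0.42, -0.44 to -0.40). ATP5G2 had 791 CPM under the RUNX1 label and 766 CPM in the control (0.04, 0.03 to 0.06). Summed over the 3 genes, the ring had 1633 CPM in the library labelled RUNX1 and 1952 CPM in the control (-0.26, -0.27 to -0.25), less far from parity than ATP5G1 alone.

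The rows that are not subunits were low or near parity. The 2 measured ones were ATP5S (-0.18) and ATP5SL (0.19), and the antisense genes NDUFA6-AS1, with 236 UMIs under the RUNX1 label and 147 UMIs in the control, and NDUFB2-AS1, with 161 UMIs under the RUNX1 label and 118 UMIs in the control, were far below their partners. In all, 78 of 94 members were measured and 16 were not, 7 of which had 0 UMIs in both libraries.

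Across complexes, 9 of the 17 lower subunits stayed past the threshold under each alternative in which they had a value: NDUFA3, NDUFB1, NDUFB2, NDUFC1, UQCRQ, COX7B, ATP5I, ATP5E and ATP5J2. The other 8 stayed below 0 under each of them. NDUFC2 and NDUFS6 came nearest to parity, at -0.19 and -0.24.

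The lower subunits tended to be short proteins. Coding lengths of GENCODE canonical transcripts were available for 75 of the 76 measured subunits, with a median of 249 nt for the lower subunits, 477 nt for the other subunits and 1311 nt for other genes. Among 14 subunits under 250 nt, 8 were lower and the median ratio was -0.61, beside a median of -0.29 and 32.4% lower among 105 other genes of that length. From 250 to under 500 nt, 7 of 32 subunits were lower (median -0.22), beside 20.1% of other genes (median -0.12). From 500 to under 1000 nt none of 18 was lower (median -0.07), beside 20.6% of other genes (median -0.15), and from 1000 nt on 1 of 11 was lower, UQCRC1 (median -0.22), beside 22.2% of other genes (median -0.14). Over the 75 subunits, which share the 2 libraries, the ratio and the coding length had a Spearman correlation of 0.38, and over 7483 other genes it was 0.00. The length classes were chosen after the values were seen, and the part of length in the result was not tested.

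**Figure D2:**
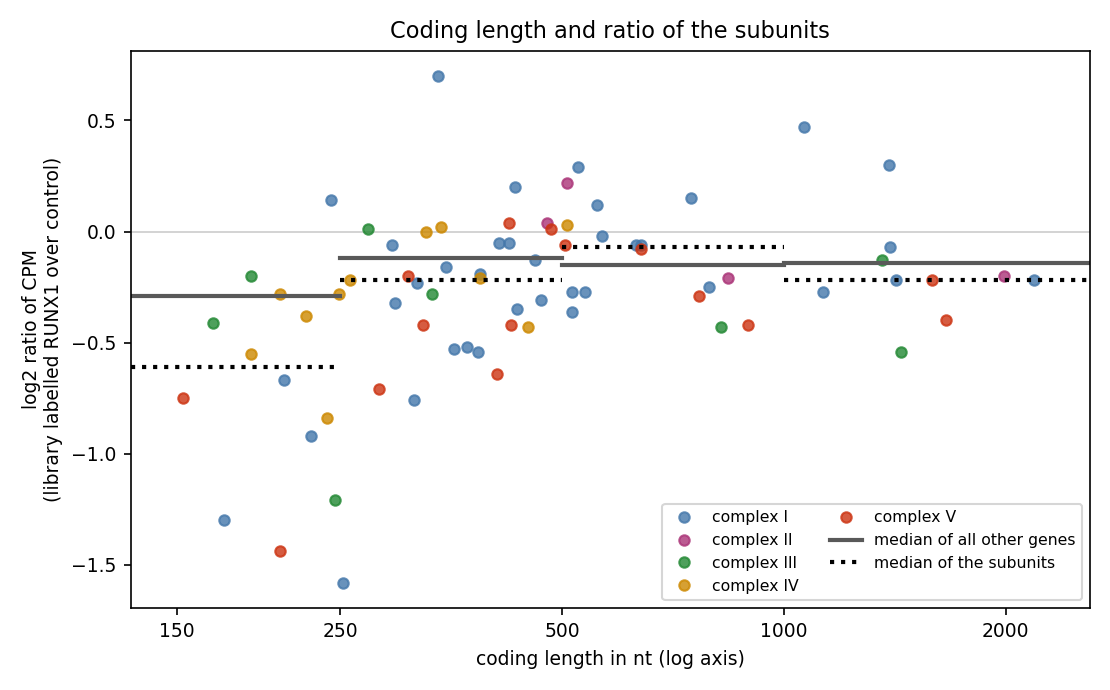
Log2 ratio of CPM, library labelled RUNX1 over control, against the coding length of each of 75 measured subunits (points, by complex; log axis in nt), with medians of the subunits (dotted) and of all other genes (solid) in 4 length classes. Under 250 nt the subunit median is -0.61 and that of other genes -0.29, and the medians of longer subunits lie between -0.22 and -0.07.

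Summed over complexes I, III, IV and V, the nuclear and the mitochondrially encoded subunits differed in opposite directions. The 13 mitochondrial messages, which are transcribed inside the organelle, summed to 106706 CPM in the library labelled RUNX1 and 79634 CPM in the control (0.42), and the nuclear subunits of the same 4 complexes to 18694 CPM under the RUNX1 label and 23267 CPM in the control. Nuclear UMIs per mitochondrial UMI were 0.175 in the library labelled RUNX1, beside 0.292 in the control. The ratio was most unequal in complex V, at 0.420 in the library labelled RUNX1, beside 0.944 in the control, followed by complex IV (0.0796 under the RUNX1 label and 0.145 in the control). Complex III had 0.196 under the RUNX1 label and 0.315 in the control, and complex I had 0.241 under the RUNX1 label and 0.291 in the control. These ratios need no scaling between libraries, since both terms come from the same library.

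The mitochondrial messages did not all lie on the same side. The log2 ratio was highest for MT-CO3 of cytochrome c oxidase (0.87), MT-ATP6 of ATP synthase (0.81) and MT-ND1 of complex I (0.69). MT-ND3 had 3911 CPM in the library labelled RUNX1 and 7811 CPM in the control (0.501 times the control level), and MT-ND4L had 275 CPM under the RUNX1 label and 598 CPM in the control (-1.12). MT-ATP8 (-0.48), MT-ND6 (-0.36) and MT-ND5 (-0.24) were also below 0. MT-ND4L overlaps MT-ND4 and MT-ATP8 overlaps MT-ATP6, so the split of UMIs within each pair is uncertain. The 7 mitochondrial subunits of complex I summed to 24639 CPM under the RUNX1 label and 24590 CPM in the control (log2 ratio 0.00), so on the CPM scale the complex I sum was level on the mitochondrial side.

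**Figure D3:**
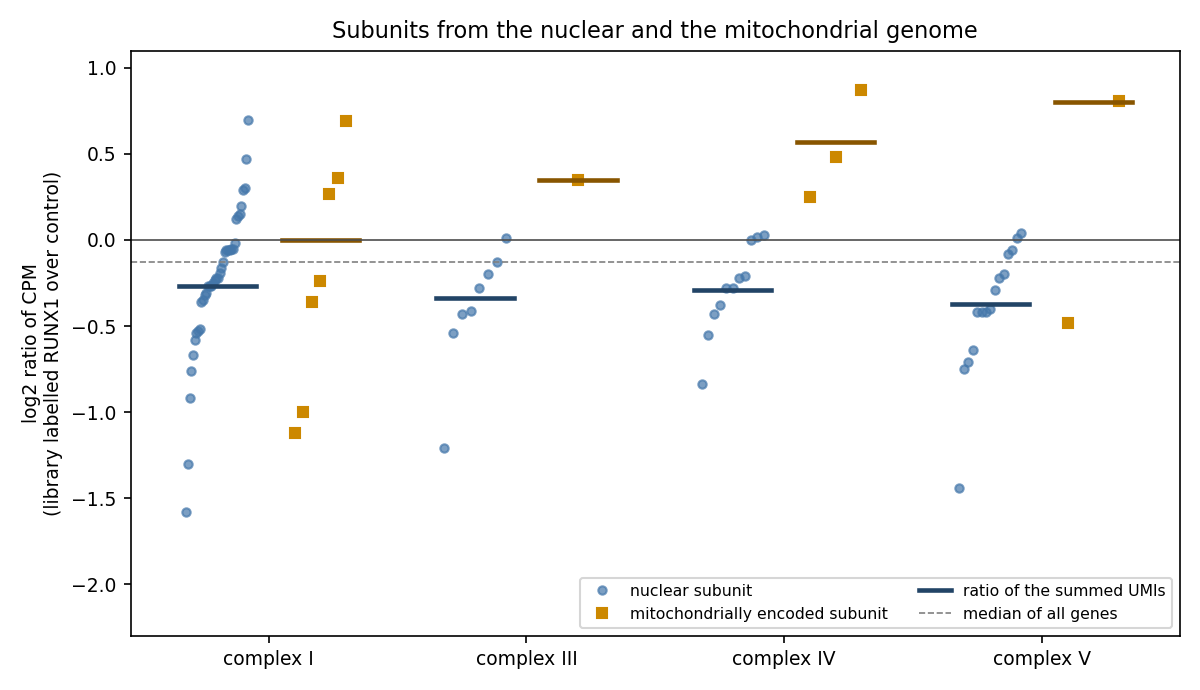
Log2 ratio of CPM, library labelled RUNX1 over control, for each nuclear (circles) and mitochondrially encoded (squares) subunit of complexes I, III, IV and V, with the ratio of summed UMIs as bars and the median of all genes dashed. Nuclear sums lie between -0.37 and -0.27, and mitochondrial sums between 0.00 in complex I and 0.80 in complex V.

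Within single cells the nuclear subunits held a median of 1.85% of UMIs in the library labelled RUNX1 (quartiles 1.66% and 2.05%) and 2.37% in the control (2.19% and 2.56%), so the middle ranges of cells did not overlap. Without mitochondrial UMIs in the denominator the medians were 2.14% under the RUNX1 label and 2.62% in the control, so a lower share remained in the library labelled RUNX1. Among the 1600 cells with the fewest UMIs, the 1600 in between and the 1600 with the most, the median share in the library labelled RUNX1 was 1.71%, 1.87% and 1.99%. In the control it was 2.39%, 2.38% and 2.36% over classes of 1866 cells, so the share varied with depth in the library labelled RUNX1 and hardly in the control. By share of mitochondrial UMIs, low to high, the medians were 1.86%, 1.90% and 1.80% in the library labelled RUNX1 and 2.39%, 2.37% and 2.36% in the control. In each class the control lay higher.

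**Figure D4:**
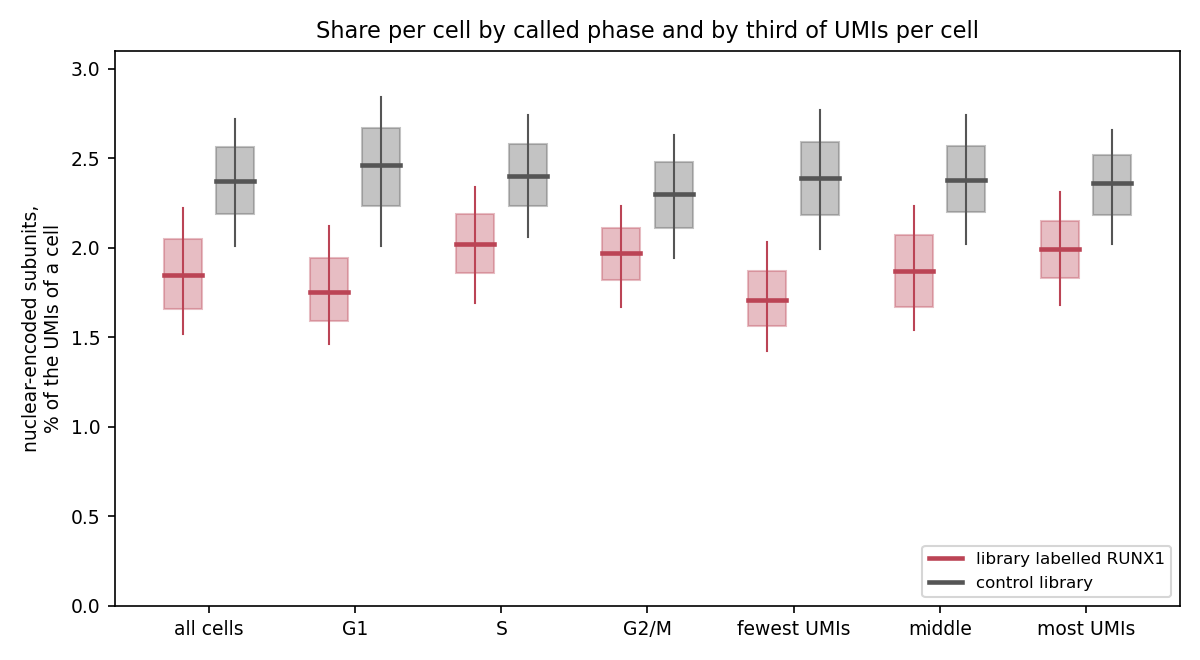
Share of the UMIs of a cell that came from nuclear-encoded subunits, in %, for all cells, by called phase and by class of UMIs per cell (line, median; box, quartiles; whisker, 10th to 90th percentile of cells; left of each pair, library labelled RUNX1; right, control). Medians lie between 1.71% and 2.02% in the library labelled RUNX1 and between 2.30% and 2.46% in the control.

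Because 61.1% of cells under the RUNX1 label and 8.34% of control cells were called G1 from cell cycle genes (58.1% under the RUNX1 label and 9.28% in the control after thinning each cell to 8000 UMIs), the subunits were also compared within phases. The lower level was present in both classes and larger in G1. In G1 cells (2934 in the library labelled RUNX1, beside 467 in the control), 28 of 76 subunits (36.8%) were lower, beside 22.9% of all measured genes, and 2 were higher, beside 19.7%. The median subunit ratio was -0.35 and that of all genes -0.05. In S or G2/M cells (1866 in the library labelled RUNX1, beside 5131 in the control), 11 subunits (14.5%) were lower, beside 12.5% of all genes, and 1 was higher, beside 7.93%. The subunit median there was -0.15 and that of all genes -0.12, so outside G1 the typical subunit lay close to the typical gene.

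Of the 76 subunits, 62 had a lower ratio in G1 than in S or G2/M cells, a count that was not made over all genes. All 11 subunits lower in S or G2/M cells were also lower in G1, and 17 were lower in G1 only, a difference that was not tested. By complex, the medians in G1 and in S or G2/M cells were -0.52 and -0.28 for complex V, -0.43 and -0.21 for complex IV, -0.41 and -0.35 for complex III, -0.29 and -0.12 for complex I and 0.07 and -0.01 for complex II. NDUFA3 had 95.7 CPM in G1 cells of the library labelled RUNX1 and 342 CPM in G1 cells of the control (-1.84), with 116 CPM under the RUNX1 label and 315 CPM in the control in S or G2/M cells (-1.44). ATP5I (-1.55 and -1.51) and NDUFB1 (-1.28 and -1.28) had nearly the same ratio in both classes.

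For a few subunits the phase mattered more. NDUFC2 had 98.3 CPM in G1 cells of the library labelled RUNX1 and 207 CPM in those of the control (-1.08), but 167 CPM under the RUNX1 label and 192 CPM in the control in S or G2/M cells (-0.20). ATP5G1 (-1.08 in G1, -0.36 in S or G2/M) and NDUFS6 (-0.82 and -0.24) had the same pattern. NDUFA10 was higher by more in G1 (0.69) than in S or G2/M cells (0.24), and NDUFA7 was higher in both (0.55 and 0.65). Within the library labelled RUNX1, G1 cells had a median log2 ratio of -0.16 over S or G2/M cells for the subunits and 0.00 for all genes, with 57 of 76 subunits below 0. Within the control the medians were 0.05 for the subunits and -0.06 for all genes, with 30 of 76 below 0. G1 cells in the library labelled RUNX1 had a median of 11658 UMIs and those in the control 10096, and the part of the phase calls and of depth in these differences was not tested.

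**Figure D5:**
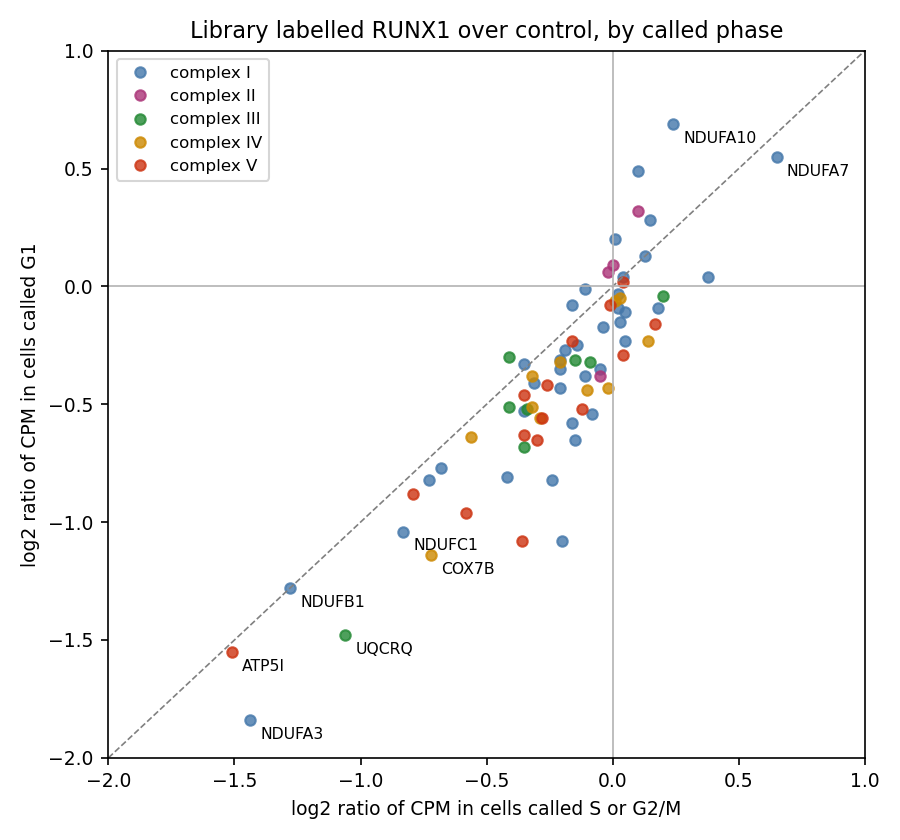
Log2 ratio of CPM, library labelled RUNX1 over control, in cells called G1 (vertical) against that in cells called S or G2/M (horizontal), for each of 76 measured subunits by complex, with equality dashed. In 62 of 76 subunits the point lies under the dashed line (not counted over all genes), and NDUFA3, ATP5I, NDUFB1 and UQCRQ are low in both.

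Chain genes that the symbol rule misses also had ratios below 0 on the CPM scale. Of 5 measured, 3 were lower (60%, beside 21.4% of all measured genes) and none higher (beside 13.8%), with a median of -0.81. USMG5, a small ATP synthase subunit of the dimer region, had 178 CPM in the library labelled RUNX1 and 426 CPM in the control (-1.26), and C14orf2, another small proteolipid of the synthase, had 270 CPM under the RUNX1 label and 513 CPM in the control (-0.93). CYCS, cytochrome c, the electron carrier between complexes III and IV, had 247 CPM under the RUNX1 label and 433 CPM in the control (-0.81). CYC1, the cytochrome c1 of complex III, had 160 CPM under the RUNX1 label and 215 CPM in the control (-0.43), and ATPIF1, the inhibitor of ATP synthase, had 409 CPM under the RUNX1 label and 439 CPM in the control (-0.10). C15orf48, a paralog of NDUFA4, had 14 UMIs in the library labelled RUNX1, beside 13 in the control.

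Assembly factors, which build the complexes but do not remain in them, had 15 lower (28.3%) and 1 higher (1.89%) of 53 measured, beside 21.4% lower and 13.8% higher of all measured genes, with a median of -0.24 beside -0.13 for all genes. The lowest was PET100 of complex IV, with 36.6 CPM in the library labelled RUNX1 and 85.6 CPM in the control (-1.23), and the highest was COA5, with 38.0 CPM under the RUNX1 label and 25.0 CPM in the control (0.60). Complex II had no assembly factor past the threshold, with SDHAF1 at 0.46 and SDHAF2 at -0.06.

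Other mitochondrial lists were mixed, and their counts stand beside 21.4% lower, 13.8% higher and a median of -0.13 for all measured genes. Of 22 measured citric acid cycle and pyruvate genes 3 were lower and none higher, between IDH3A (18.2 CPM in the library labelled RUNX1 and 31.7 CPM in the control, -0.80) and DLST (22.6 CPM under the RUNX1 label and 18.1 CPM in the control, 0.33), with a median of -0.27. Coenzyme Q synthesis, which makes the carrier between complexes I or II and complex III, had 2 lower and 1 higher of 12, between COQ2 (12.3 CPM under the RUNX1 label and 24.5 CPM in the control, -0.99) and COQ10A (41.4 CPM under the RUNX1 label and 27.8 CPM in the control, 0.57). Carriers and pores had 3 lower of 8 and none higher, between SLC25A4, an exchanger of ADP and ATP (22.7 CPM under the RUNX1 label and 43.8 CPM in the control, -0.95), and VDAC2 (123 CPM under the RUNX1 label and 129 CPM in the control, -0.07). Oxidant defence had 3 lower of 10 and none higher, between the mitochondrial superoxide dismutase SOD2 (62.1 CPM under the RUNX1 label and 150 CPM in the control, -1.28) and PRDX5 (143 CPM under the RUNX1 label and 119 CPM in the control, 0.26). Among 13 measured regulators of mitochondrial gene expression, 6 were lower (46.2%) and none higher, with a median of -0.48, beside 21.4% lower and a median of -0.13 for all measured genes. TFAM, which packages and transcribes mitochondrial DNA, had 40.9 CPM in the library labelled RUNX1 and 79.1 CPM in the control (-0.95), and ESRRA was the highest (22.9 CPM under the RUNX1 label and 19.2 CPM in the control, 0.25). Of the factors named for the promoter motifs, YY1 had 125 CPM under the RUNX1 label and 182 CPM in the control (-0.55) and GABPA had a ratio of -0.10. NRF1 was below the level for measurement, with 4.87 CPM in the library labelled RUNX1 and 7.39 CPM in the control, and the coactivator PPARGC1A had 0 UMIs in both.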

How the data were processed

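The authors used Cell Ranger 3.0.2 with hg19 and mm10 together as the reference, and deposited raw counts of UMIs for each human gene and cell, without normalization. The cell filter was that of the study. Counts were summed over cells and divided by the library total to give CPM, and ratios were taken without a pseudocount. Members and lists were chosen with earlier results of these data known. The genes named were RUNX1, the 3 highest and 3 lowest ratios of each complex, each member past 0.5, complex II, the paralogs, the chain genes outside the rule and the extremes of each list. Of the genes this rule names, 1 is not reported here. Others were chosen after their values were seen. Intervals were exact conditional binomial for ratios. Phases were scored in scanpy 1.11.5 (42 S and 54 G2/M genes) on counts scaled to 10000 per cell. Doublets were not removed. Gene positions and coding lengths came from GENCODE v44lift37 by Ensembl identifier. Promoters were matched to RefSeq by Ensembl identifier, or by symbol where that gave no match. The first listed start was used for the 9 of 63 genes with several. On counts simulated for 7973 genes, 98 of 100 genes changed 1.5-fold, 100 of 100 changed 4-fold and 13 unchanged genes passed the threshold. The simulated counts varied around the control levels by counting error only. They hold no variation between cultures, so they give no rate of false calls for these libraries. Alternatives changed the cell filter, scaling (edgeR 4.0.16, DESeq2 1.42.0), gene floor, phase, depth and weights. Python 3.11.15, numpy 2.4.6, scipy 1.17.1, pandas 2.3.3 and R 4.3.3 were used.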

Additional observations from a re-analysis of the deposited data

Results flagged for a closer look

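The summed nuclear subunits differed in opposite directions between phases of the 2 libraries. G1 cells had a log2 ratio of -0.15 over S or G2/M cells in the library labelled RUNX1 (-0.15 to -0.14, with 18055 CPM in G1 and 20013 CPM in S or G2/M cells) and of 0.05 in the control (0.04 to 0.06, with 24446 and 23594 CPM). With 1 library per group, this difference was not tested.

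For 13 of 76 subunits the ratio between the libraries (RUNX1 label over control) had opposite signs in G1 and in S or G2/M cells. This difference was not tested either, and the share of all genes with opposite signs was not counted. For 4 of the 13 subunits both counting intervals lay at least 0.01 from 0 after rounding to 2 decimals. NDUFB3, an accessory subunit of complex I, had -0.23 in G1 and 0.05 in S or G2/M cells. COX6A1 of complex IV had -0.23 and 0.14. ATP5O, the subunit that joins the peripheral stalk of ATP synthase to its head, had -0.29 and 0.04, and ATP5G2 of the c ring had -0.16 and 0.17. COX4I1 (-0.05 in G1 and 0.03 in S or G2/M cells) and NDUFS8 (-0.11 and 0.05) each had an interval that reached 0 after rounding.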

How the results depend on the processing

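With 1 library per group no replicate could be left out, and no spread between cultures is known. No paired analysis was possible because each group had 1 library. The sign of the median of the subunits (-0.22) and of their summed ratio (-0.31) held under all 16 alternatives. The median was -0.35 with TMM, with the median of ratios, in G1 cells and in G1 cells after thinning, and -0.01 when 37 mitochondrial and 89 ribosomal protein rows were taken out of the totals. Minus the median of all genes, it was -0.10, and it was -0.26 in cells under 10% mitochondrial UMIs, -0.24 at a floor of 1 CPM, -0.35 with no floor, -0.30 in G1 cells and -0.26 in G1 cells after thinning. The gap was smaller in S or G2/M cells, where the subunit median was -0.15 and that of all genes -0.12. With TMM these medians were -0.35 and -0.25, and with the reduced totals -0.01 and 0.08. The 17 lower subunits became 9 with the reduced totals, 28 in G1 cells and 11 in S or G2/M cells, also after thinning. They became 4 at a log2 ratio of 1, and 25 with TMM or the median of ratios. Of all genes, 21.4% were lower, and 11.2% with the reduced totals, 22.9% in G1 cells and 12.5% in S or G2/M cells. That share was 12.6% in S or G2/M cells after thinning, 30.5% with TMM and 30.4% with the median of ratios. The 1 higher became 4 with the reduced totals and 0 at a log2 ratio of 1. It became 2 under 10% mitochondrial UMIs, with no floor, with cells weighted equally, in G1 cells and in G1 cells after thinning. Of all genes, 13.8% were higher, and 22.4% with the reduced totals, 21.5% under 10% mitochondrial UMIs and 35.4% with no floor. That share was 19.3% with cells weighted equally, 19.7% in G1 cells and 17.7% in G1 cells after thinning. The summed ratio was -0.44 with TMM, the median of ratios or G1 cells, -0.42 in G1 cells after thinning, -0.35 with cells weighted equally, -0.34 under 10% mitochondrial UMIs, -0.33 after thinning, -0.32 with all barcodes, -0.30 with equal phases, -0.24 in S or G2/M cells, also after thinning, and -0.10 with the reduced totals. Of the 16 alternatives, 2 were chosen after seeing the data, and the phase classes after thinning may have been as well. The first of the 2 left out subunits under 250 nt, and 9 of 62 were lower, with a sum of -0.23. The second, the median of ratios over genes at 10 CPM, gave a median of -0.10, 11 lower, 2 higher and a sum of -0.18. Of all genes, 21.4% were lower with the first, and with the second 14.4% were lower and 18.7% higher. Of all genes past the threshold, 39.3% were higher, and 25.2% with TMM, 25.3% with the median of ratios, 66.7% with the reduced totals, 59.3% at a floor of 1 CPM, 66.8% with no floor, 55.0% under 10% mitochondrial UMIs and 56.5% with the median of ratios over genes at 10 CPM. The median of all genes was -0.25 with TMM or the median of ratios and 0.08 with the reduced totals. The cause of these shifts was not tested. Of 1282 further values, 744 left the counting interval of the reported value or, for medians of a complex, shifted by 0.1 or more, and none of them changed from a called ratio to the other sign.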
